A study of Mus musculus with 9 samples.

Results

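The histone acetyltransferases and the BRPF scaffold proteins studied here are 10 genes, taken by name: the scaffolds Brd1, Brpf1 and Brpf3, the MYST family enzymes Kat6a, Kat6b and Kat7, the GCN5 family enzymes Kat2a and Kat2b, and the coactivator enzymes Ep300 and Crebbp. All 10 were found among the 46078 genes of the count files, and all 10 had enough counts to be tested in each of the 3 comparisons of time points. Their mRNA was measured by poly-A RNA-seq in EGFP-SSC, 1 wild-type mouse line of spermatogonial stem cells that carries a green fluorescent protein, in 9 libraries: the time points of differentiation are 0 h, 24 h and 48 h, and each has 3 biological replicates.

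At 0 h the line was in its normal culture on mitomycin C-treated mouse embryonic fibroblasts, in StemPro-34 medium with growth factors that include GDNF. For 24 h and 48 h it had been mixed in equal parts with testicular somatic cells of neonatal, busulfan-exposed mice and cultured in alpha-MEM with knockout serum replacement, BMP-4/7, retinoic acid, activin A, testosterone, FSH and pituitary extract, after which the EGFP-positive cells were sorted. Time in culture therefore changed together with medium, companion cells and, as the labels describe it, the sort, and these cannot be told apart in the comparisons with 0 h. The paper describes flow sorting before RNA-seq for different culture stages, so the 0 h cells may have been sorted as well. Since the same 0 h libraries serve both comparisons with 0 h, these comparisons are not independent of each other. The labels call the replicates biological but do not say that they were separate differentiation runs, so that p-values measure the spread between these libraries.

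Histone acetyltransferases transfer an acetyl group from acetyl-CoA to lysines of histone tails, which is generally linked to open chromatin and transcription. BRPF1, BRD1 (also called BRPF2) and BRPF3 have no such activity of their own. They hold a MYST family enzyme (KAT6A, KAT6B or KAT7) together with an ING protein and MEAF6 in one complex and steer it to histone H3, whereas JADE scaffolds steer KAT7 to histone H4. KAT2A and KAT2B are alternative catalytic subunits of the SAGA and ATAC coactivator complexes, and EP300 and CREBBP are large, closely related enzymes that transcription factors recruit to enhancers and promoters. In male germ cells, histone acetylation is best known for the wave that precedes the replacement of histones in spermatids, a stage far later than the one cultured here.

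Between 0 h and 24 h, 3 of the 10 genes changed: Brd1 and Kat2b fell, and Brpf3 rose. By 48 h, Kat2b was still lower and Brpf3 still higher than at 0 h, while Brd1 and Ep300 were higher than at 24 h. Brd1 was not called between 48 h and 0 h. Of these 48 h calls, only that of Kat2b was kept under each other setting tried and with each library left out. The remaining 6 genes (Brpf1, Kat6a, Kat6b, Kat7, Kat2a and Crebbp) passed the edgeR test in no comparison, although Kat6a and Crebbp passed under DESeq2 in 1 comparison each. A gene is called changed where the adjusted p of the edgeR quasi-likelihood test is up to 0.05, and levels are CPM (counts scaled to the depth of the library, after TMM), unless FPKM is named.

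To show what lies before the start of the genes that changed between 0 h and 24 h, the 140 bases upstream of their outermost annotated transcript start are printed 5′ to 3′ on the strand of the gene, as RefSeq gives them for GRCm38.p6. They are Brd1 (minus strand, chr15:88734234-88734373), Brpf3 (plus strand, chr17:28800950-28801089) and Kat2b (plus strand, chr17:53566721-53566860). Capitals mark GGGCGG on either strand, the GC box bound by SP family factors.
Brd1: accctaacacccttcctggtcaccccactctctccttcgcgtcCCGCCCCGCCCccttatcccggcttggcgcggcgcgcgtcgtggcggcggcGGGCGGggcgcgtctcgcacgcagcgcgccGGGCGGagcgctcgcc
Brpf3: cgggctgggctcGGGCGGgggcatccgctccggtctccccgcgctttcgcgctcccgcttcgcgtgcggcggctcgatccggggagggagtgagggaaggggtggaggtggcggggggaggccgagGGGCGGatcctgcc
Kat2b: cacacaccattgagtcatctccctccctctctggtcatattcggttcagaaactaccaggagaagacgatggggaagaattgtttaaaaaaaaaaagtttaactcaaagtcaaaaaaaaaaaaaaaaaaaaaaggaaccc

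The stretches of the scaffold genes were both 77.9% G and C, with 25 CpG in Brd1 and 19 in Brpf3, and held 4 and 2 GC boxes (the first pair in Brd1 overlaps by 1 base). The stretch of Kat2b was 35.7% G and C, with 2 CpG and 0 GC boxes. Windows of 250 bases before the RefSeq start were found for 9 of the 10 genes, and they were searched on both strands for GGGCGG and for 4 other motifs: CACGTG (the E-box), TGACGTCA (the cyclic AMP response element), CCGGAAGT (an ETS site) and AGGTCA (a nuclear receptor half-site). GENCODE starts some of these genes earlier: the windows of Kat6b, Ep300 and Crebbp lie inside its gene, and those of Brd1, Brpf3 and Kat2b do so at least in part. GGGCGG stood in the windows of Brd1, Brpf1, Brpf3, Kat6b, Ep300 and Crebbp, and not in those of Kat7, Kat2a and Kat2b, against 32.7% of all 32851 windows. AGGTCA stood in that of Kat7 alone (14.0% of all windows), and CACGTG, TGACGTCA and CCGGAAGT in none of them (6.02%, 1.55% and 2.88% of all windows). These matches describe the letters of the windows and are not shown to be binding sites.

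The libraries held 16825251 to 22201892 counts, and the 10 genes took 224 to 7669 counts in a library, which puts the counting error of a single value between 6.68% and 1.14%. The 0 h libraries differed from each other more than the later ones did (chi-square of the counts per degree of freedom of 35.5 to 81.4 for pairs of 0 h libraries, and of 7.13 to 26 for pairs at 24 h or at 48 h). In 0 h replicate 3, Kat2b stood at 0.421 of the mean of the other 0 h libraries, Kat6a at 0.555, Kat6b at 0.603, Crebbp at 0.623 and Ep300 at 0.624, whereas Kat2a stood at 1.30 and the remaining 4 genes between 0.975 and 1.07. The transcripts of the first 5 of these genes hold 46.6% to 51.7% G and C and that of Kat2a 57.4%, while that of Kat7, at 0.975, holds 50.0%. The longest transcripts of Kat6a, Kat6b, Ep300 and Crebbp are 7699 to 10820 bases long, that of Kat2b 4653 and that of Kat2a 3269. Brpf3, at 1.06, has one of 7169 bases. GC content and length thus both differed between these genes, and the part of either in the values was not tested. Each comparison with 0 h is therefore also given without 0 h replicate 3 where the library matters.

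Markers of germ cells and of the somatic cells of the co-culture were read as a check of the sorted cells, by the lowest and highest summed level in a library. The 6 germ cell markers summed to 1790 to 2840 CPM at 0 h, 2630 to 2820 CPM at 24 h and 2570 to 2740 CPM at 48 h, with none at 0 in a library. Single markers moved: 2 were called higher at 24 h against 0 h, 1 higher and 1 lower at 48 h against 0 h, and 2 lower from 24 h to 48 h. Uchl1 stood at 356 to 395 CPM at 0 h and 822 to 895 CPM at 24 h, and Zbtb16 at 260 to 282 CPM at 24 h and 190 to 216 CPM at 48 h. The 6 stromal markers summed to 261 to 357, 2090 to 2420 and 2810 to 3100 CPM at 0, 24 and 48 h, with 4 of the 6 called higher in each comparison with 0 h. From 24 h to 48 h, 5 were called higher and 1 lower. The collagen genes Col1a1, Col1a2 and Col3a1 made up most of the sum (1010 to 1230, 626 to 750 and 315 to 390 CPM at 24 h). Dcn (10.2 to 30.0 CPM at 0 h and 22.7 to 35.4 CPM at 24 h) and Lum (0.697 to 2.06 and 0.932 to 1.39 CPM) overlapped between 0 h and 24 h. The 4 peritubular myoid markers summed to 5.21 to 5.48, 96.4 to 134 and 180 to 225 CPM, with 4 of 4 called higher. The 6 Sertoli markers summed to 16.9 to 17.4, 23.0 to 33.9 and 28.8 to 30.8 CPM, with 4 called higher in each comparison with 0 h, 2 lower (Sox9 and Rhox5) at 24 h and 1 lower at 48 h. The 5 Leydig markers summed to 4.38 to 6.79, 24.6 to 38.5 and 25.2 to 32.6 CPM, with 2 and 3 called higher at 24 h and 48 h, and with Insl3 and Hsd3b1 at 0 in each 0 h library. The 3 endothelial markers summed to 42.1 to 45.8, 11.6 to 14.0 and 7.99 to 8.68 CPM, with 2 called lower in each comparison with 0 h. The 4 macrophage markers summed to 15.5 to 17.3, 5.72 to 9.52 and 5.50 to 7.49 CPM, with 1 called lower in each comparison with 0 h and 1 called higher at 24 h. Most of this sum was Cd68 (15.0 to 16.4 CPM at 0 h and 4.49 to 7.47 CPM at 24 h), whereas Csf1r was at 0.149 to 0.436 CPM at 0 h and 0.641 to 1.51 CPM at 24 h, and Adgre1 at 0.0498 to 0.187 and 0.294 to 0.534 CPM. The part of these cells in the results below was not tested, and in bulk RNA fewer cells with an mRNA cannot be told apart from less of it per cell.

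The scaffold genes moved in different directions. Brd1 (ENSMUSG00000022387, chr15:88687034-88734233 of GRCm38, minus strand) encodes a BRPF scaffold that is found mainly with KAT7. It stood at 238, 237 and 253 CPM in the 0 h libraries, at 169, 174 and 160 CPM at 24 h and at 193, 226 and 200 CPM at 48 h. The 3 groups did not overlap: each 24 h library lay below each 48 h library, and each of those below each 0 h library. The fall from 0 h to 24 h was -0.52 on the log2 scale (SE 0.10, adjusted p = 0.0068 by the edgeR quasi-likelihood test, a 1.44-fold fall), and it was -0.46 without 0 h replicate 3. From 24 h to 48 h Brd1 rose by 0.29 (SE 0.07, adjusted p = 0.022 by edgeR, 1.22-fold). The difference that was left between 48 h and 0 h, -0.23 (SE 0.11), did not pass the test (adjusted p = 0.14 by edgeR). The rise from 24 h to 48 h is the less firm of its calls, since the adjusted p was 0.068 without 24 h replicate 1, 0.053 without 24 h replicate 3, and 0.077 with all 9 libraries in 1 edgeR fit.

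Brpf3 (ENSMUSG00000063952, chr17:28801090-28839949, plus strand), the scaffold that is also tied mainly to KAT7, went the other way. Its levels were 31.5, 38.7 and 37.1 CPM at 0 h, 58.2, 56.7 and 51.9 CPM at 24 h, and 48.2, 58.2 and 51.0 CPM at 48 h. The 0 h libraries all lay below the later ones, and the groups of 24 h and 48 h overlapped. The rise at 24 h was 0.65 on the log2 scale (SE 0.12, adjusted p = 0.0079 by edgeR, 1.57-fold), or 0.70 without 0 h replicate 3. At 48 h it was 0.55 (SE 0.13, adjusted p = 0.017 by edgeR, 1.47-fold), and this call was lost without 48 h replicate 2 (0.46, adjusted p = 0.072) or 48 h replicate 3 (0.58, adjusted p = 0.058). A transcript on the other strand shares 3.14% of the exon bases of Brpf3 and a further one 1.38%, and neither is listed in the count files. The sources used here do not say whether reads were counted by strand.

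Brpf1 (ENSMUSG00000001632, chr6:113307137-113324860, plus strand) encodes the scaffold best known as the partner of KAT6A and KAT6B. It gave 120, 139 and 138 CPM at 0 h, 151, 143 and 150 CPM at 24 h, and 134, 155 and 136 CPM at 48 h. The 24 h libraries lay above those of 0 h, by 0.18 on the log2 scale (SE 0.10), without passing the test (adjusted p = 0.26 by edgeR), and the 48 h libraries overlapped both groups. When the fit held offsets for the GC content and length of transcripts, Brpf1 passed at 24 h (0.23, adjusted p = 0.046 by edgeR) and at 48 h (0.29, adjusted p = 0.014).

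**Figure D1:**
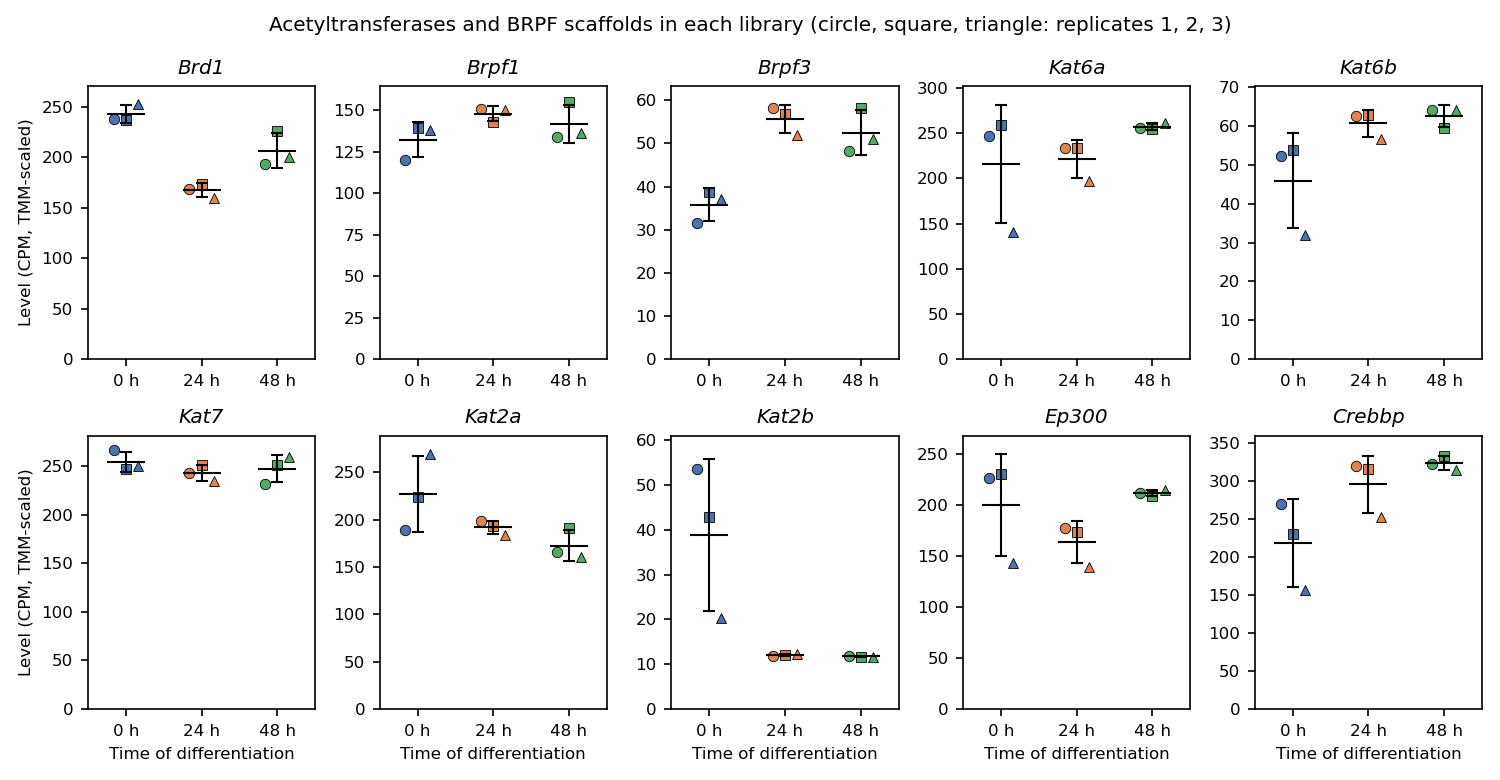
Level of each of the 10 genes in each of the 9 libraries, in CPM after TMM scaling on a linear axis from 0 (circle, square and triangle are replicates 1, 2 and 3; the bar is the mean and the whiskers 1 SD, n = 3). Brd1 is lowest at 24 h, Brpf3 is higher and Kat2b lower at 24 h and 48 h than at 0 h, and the triangle of 0 h lies below the other 0 h points for Kat6a, Kat6b, Kat2b, Ep300 and Crebbp.

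The enzymes that the BRPF scaffolds hold passed the edgeR test in no comparison. Kat7 (ENSMUSG00000038909, chr11:95274259-95310246, minus strand), known as HBO1, acts with either the BRPF or the JADE scaffolds. It stood at 266, 247 and 250 CPM at 0 h, 243, 251 and 235 CPM at 24 h, and 232, 251 and 259 CPM at 48 h. The groups overlapped, with log2 differences of -0.05 (SE 0.09) at 24 h and -0.04 (SE 0.10) at 48 h against 0 h, and of 0.01 (SE 0.06) at 48 h against 24 h. The sign of both differences from 0 h turned when libraries were scaled by their size alone (0.06 and 0.07), a scaling that by itself moved the median of all genes to 0.12 and 0.13.

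Kat6a (ENSMUSG00000031540, chr8:22859535-22943259, plus strand), known as MOZ, is needed for blood stem cells. Its levels were 247, 259 and 141 CPM at 0 h, 233, 233 and 197 CPM at 24 h, and 256, 254 and 261 CPM at 48 h. The low value of 0 h replicate 3 sets the spread at 0 h, and without it the difference between 24 h and 0 h turned from 0.05 (SE 0.23) to -0.16. Between 24 h and 48 h the libraries did not overlap, and the difference of 0.20 (SE 0.08) missed the threshold by edgeR (adjusted p = 0.086) and passed it by DESeq2 (0.22, adjusted p = 0.0496).

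Kat6b (ENSMUSG00000021767, chr14:21481434-21672478, plus strand), known as MORF and the nearest relative of Kat6a, gave 52.2, 53.7 and 31.9 CPM at 0 h, 62.4, 62.7 and 56.7 CPM at 24 h, and 64.0, 59.3 and 64.1 CPM at 48 h. The 0 h libraries all lay below the later ones. The differences of 0.41 (SE 0.20, adjusted p = 0.19 by edgeR) and 0.44 (SE 0.20, adjusted p = 0.14) did not pass the test. Without 0 h replicate 3 they were 0.23 and 0.27, and with offsets for GC content and length Kat6b passed at 24 h (0.45, adjusted p = 0.036 by edgeR).

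Of the GCN5 family, Kat2b showed the largest change of the 10 genes in both comparisons with 0 h. Kat2b (ENSMUSG00000000708, chr17:53566861-53672720, plus strand), known as PCAF, stood at 53.5, 42.8 and 20.3 CPM at 0 h, at 11.9, 12.0 and 12.2 CPM at 24 h, and at 11.9, 11.6 and 11.7 CPM at 48 h. The 0 h libraries spread from 20.3 to 53.5 CPM, yet the lowest of them lay above each later library, and the 6 later libraries stayed between 11.6 and 12.2 CPM. The fall at 24 h was -1.68 on the log2 scale (SE 0.33, adjusted p = 0.0088 by edgeR, 3.21-fold) and at 48 h -1.73 (SE 0.33, adjusted p = 0.0067, 3.31-fold). Without 0 h replicate 3, the falls were -1.96 and -2.01. Between 24 h and 48 h the difference was -0.04 (SE 0.10).

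Kat2a (ENSMUSG00000020918, chr11:100704746-100712465, minus strand), known as GCN5, takes the same place in SAGA and ATAC as Kat2b. It gave 189, 224 and 269 CPM at 0 h, 198, 193 and 184 CPM at 24 h, and 166, 191 and 160 CPM at 48 h. The groups overlapped, and the differences from 0 h of -0.23 (SE 0.14, adjusted p = 0.28 by edgeR) and -0.40 (SE 0.15, adjusted p = 0.086) did not pass the test. Without 0 h replicate 3, the library in which Kat2a was highest, they were -0.07 and -0.23. Kat2a was called lower at 48 h than at 0 h without 0 h replicate 1 (-0.52, adjusted p = 0.020 by edgeR) and with all 9 libraries in 1 fit (-0.40, adjusted p = 0.034).

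Of the pair of coactivator enzymes, Ep300 passed the edgeR test from 24 h to 48 h. Crebbp passed only under other settings or with a library left out, and the genes were not tested against each other. Ep300 (ENSMUSG00000055024, chr15:81585351-81652077, plus strand) encodes p300. It stood at 227, 231 and 143 CPM at 0 h, 178, 174 and 140 CPM at 24 h, and 212, 209 and 215 CPM at 48 h. Each 48 h library lay above each 24 h library, and the 0 h libraries overlapped both. Ep300 rose from 24 h to 48 h by 0.36 on the log2 scale (SE 0.09, adjusted p = 0.023 by edgeR, 1.28-fold). This call was lost without 48 h replicate 1 (adjusted p = 0.068) or 48 h replicate 3 (adjusted p = 0.066), and with all 9 libraries in 1 fit (0.37, adjusted p = 0.26 by edgeR). The difference between 24 h and 0 h was -0.27 (SE 0.20, adjusted p = 0.39 by edgeR) with all libraries of these groups, and -0.44 (adjusted p = 0.030) without 0 h replicate 3.

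Crebbp (ENSMUSG00000022521, chr16:4081328-4213997, minus strand), which encodes CBP, gave 270, 230 and 156 CPM at 0 h, 319, 315 and 252 CPM at 24 h, and 322, 333 and 314 CPM at 48 h. Each 48 h library lay above each 0 h library, while 24 h overlapped both. The difference of 0.56 at 48 h (SE 0.20) missed the threshold (adjusted p = 0.066 by edgeR), and that of 0.45 at 24 h (SE 0.21) had an adjusted p of 0.17. The 24 h difference was 0.28 when 0 h replicate 3 was left out, and it passed without 0 h replicate 1 (0.63, adjusted p = 0.043 by edgeR). At 48 h the call turned on the fit: Crebbp passed under DESeq2 (0.57, adjusted p = 0.032), with all 9 libraries in 1 edgeR fit (0.56, adjusted p = 0.033), with no filter on low counts (0.56, adjusted p = 0.039), with library size alone (0.67, adjusted p = 0.038), with offsets for GC content and length (0.51, adjusted p = 0.029), without 0 h replicate 1 (0.75, adjusted p = 0.012) and without 0 h replicate 3 (0.40, adjusted p = 0.029). In each of these fits its direction was upward.

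**Figure D2:**
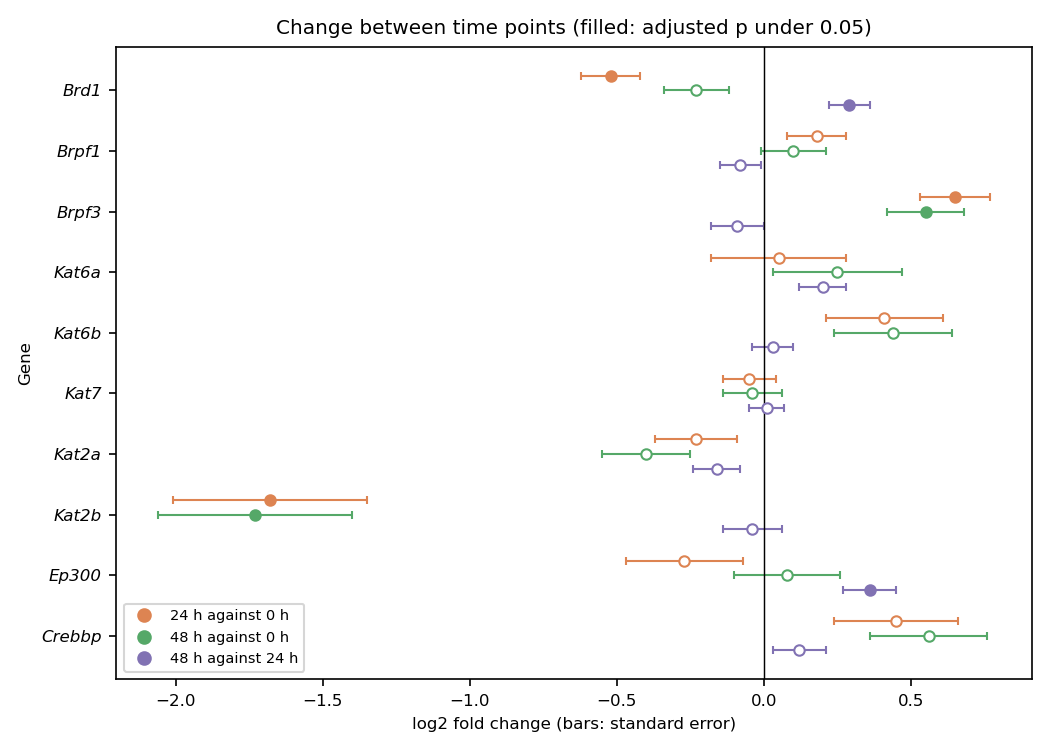
Log2 fold change of each gene in the 3 comparisons of time points, from edgeR fits to the 6 libraries of each comparison, with bars of 1 standard error; filled points have an adjusted p under 0.05. Filled points are those of Brd1 (24 h against 0 h, 48 h against 24 h), Brpf3 and Kat2b (24 h and 48 h against 0 h) and Ep300 (48 h against 24 h).

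Counted together, 3 of the 10 genes were called at 24 h against 0 h, 1 higher and 2 lower, where 25.5% of the 17592 genes tested were called (11.4% higher and 14.2% lower). In the comparison of 48 h with 0 h, 2 of 10 were called, 1 in each direction, against 31.6% of 17755 genes (13.0% higher and 18.5% lower). From 24 h to 48 h, 2 of 10 were called, both higher, by edgeR, against 21.3% of 17499 genes (8.61% higher and 12.7% lower). No member was lower there at an unadjusted p under 0.05 (0 of 10), by edgeR or by DESeq2. These shares are near those of all genes, so that the counts say nothing particular about acetyltransferases as a group. The median log2 difference of the 10 genes was 0.00, 0.09 and 0.02 in the 3 comparisons, beside 0.0052, 0.0169 and -0.0045 over all genes tested.

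Since 0 h replicate 3 lowered several of the genes at once, the counts of related genes were also set against each other within each library. These ratios were chosen after the values had been seen and are given as a description, with no test. How often other pairs of genes are set apart by time in this way was not counted. Ep300 and Crebbp were both low in 0 h replicate 3, and their ratio was not: there were 1.19, 0.994 and 1.09 counts of Crebbp per count of Ep300 at 0 h, 1.79, 1.80 and 1.80 at 24 h, and 1.52, 1.59 and 1.46 at 48 h. The 3 groups did not overlap, with the ratio highest at 24 h. Kat6a and Kat6b were also low together, with 4.74, 4.82 and 4.41 counts of Kat6a per count of Kat6b at 0 h, 3.73, 3.72 and 3.47 at 24 h, and 3.99, 4.27 and 4.07 at 48 h. Here too the groups did not overlap, and the ratio was lowest at 24 h.

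Among the scaffolds, there were 7.54, 6.14 and 6.83 counts of Brd1 per count of Brpf3 at 0 h, 2.90, 3.07 and 3.07 at 24 h, and 4.01, 3.88 and 3.92 at 48 h. Against Brpf1, Brd1 gave ratios of 1.98, 1.71 and 1.84 at 0 h, 1.12, 1.21 and 1.06 at 24 h, and 1.44, 1.46 and 1.48 at 48 h. In both ratios the share of Brd1 among the scaffold counts was lowest at 24 h and between the other groups at 48 h. Brpf1 to Brpf3 gave 3.81, 3.59 and 3.72 at 0 h, 2.59, 2.53 and 2.89 at 24 h, and 2.78, 2.67 and 2.66 at 48 h, with 24 h and 48 h overlapping. Kat2a to Kat2b was the least even of the ratios at 0 h, with 3.53, 5.24 and 13.3, against 16.7, 16.2 and 15.1 at 24 h and 14.0, 16.5 and 13.6 at 48 h. The 0 h library with the highest ratio lay just under the lowest of 48 h.

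**Figure D3:**
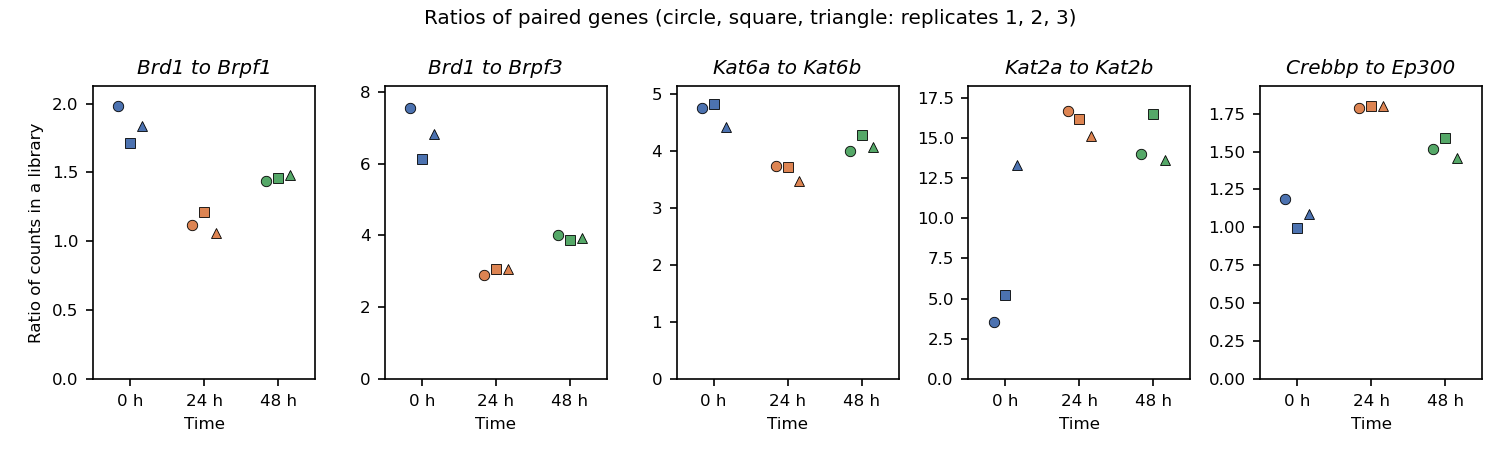
Ratio of the counts of paired genes within each library, on linear axes from 0 (circle, square and triangle are replicates 1, 2 and 3). For Brd1 to Brpf1, Brd1 to Brpf3, Kat6a to Kat6b and Crebbp to Ep300 the 3 time points do not overlap; for Kat2a to Kat2b, 0 h replicate 3 lies at 13.3, apart from 3.53 and 5.24. The ratio of Brpf1 to Brpf3, in which 24 h and 48 h overlap, is not drawn.

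To set levels of different genes beside each other, counts were divided by gene length and given as FPKM (fragments per kilobase of exon, scaled to library depth), as mean ± SD over 3 libraries. At 0 h the order with the union of exons as length was Kat2a (65.4 ± 11.5), Kat7 (45.9 ± 1.79), Brd1 (28.9 ± 1.07), Kat6a (23.5 ± 7.11), Brpf1 (19.5 ± 1.55), Crebbp (16.1 ± 4.28), Ep300 (14.0 ± 3.48), Kat2b (7.99 ± 3.49), Brpf3 (4.13 ± 0.434) and Kat6b (2.73 ± 0.724). From Kat6a to Brpf3 each gene overlapped the next in this order over the 0 h libraries. The lowest library of Brd1 and the highest of Kat6a met at 28.2 FPKM. Among neighbours, Kat2a and Kat7, Kat7 and Brd1, and Brpf3 and Kat6b were set apart. Genes farther from each other in the order could be as well: Brd1 (28.2 to 30.1 FPKM) lay above Brpf1 (17.7 to 20.5 FPKM) in all 0 h libraries.

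At 24 h Brd1 went from the third to the sixth place, at 19.9 ± 0.874 FPKM, behind Kat6a (24.1 ± 2.29), Brpf1 (21.8 ± 0.620) and Crebbp (21.8 ± 2.78), each of which overlapped its neighbour. Kat2b went to the last place at 24 h (2.47 ± 0.0344 FPKM) and 48 h (2.41 ± 0.0297 FPKM), below each library of Kat6b. At 48 h Brd1 (24.6 ± 2.05 FPKM) stood just behind Kat6a and overlapped Crebbp (23.8 ± 0.719 FPKM), and Kat2a (49.5 ± 4.70 FPKM) overlapped Kat7 (44.7 ± 2.55 FPKM). With the longest transcript as length, Kat7 (71.4 ± 2.79 FPKM at 0 h) came before Kat2a (69.6 ± 12.3 FPKM), Brd1 came right after these enzymes at each time point (47.1 ± 1.74, 32.5 ± 1.43 and 40.1 ± 3.35 FPKM), and the last place at 0 h was that of Brpf3 (4.99 ± 0.524 FPKM) rather than Kat6b (5.97 ± 1.58 FPKM). Kat2b was last at 24 h and 48 h by either length.

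The other genes of these complexes and of their substrate and readers were read from 6 lists with 59 genes, all of which could be tested. At 24 h against 0 h, 7 of the 59 were called, 3 higher and 4 lower, at 48 h against 0 h 11 (6 higher and 5 lower), and at 48 h against 24 h 13 (5 higher and 8 lower). These are 11.9%, 18.6% and 22% of the 59, beside 25.5%, 31.6% and 21.3% of all genes tested. The medians of their log2 differences were 0.05, 0.05 and 0.06. Of the 6 partners of the BRPF and JADE complexes (the ING, MEAF6 and JADE proteins), 0, 1 and 1 were called in the 3 comparisons by edgeR. For the 0 at 24 h, 1 gene had an unadjusted p under 0.05 and DESeq2 called 0. The called genes were Jade3, a scaffold of KAT7 (0.99 at 48 h against 0 h, SE 0.30), and Meaf6, a subunit that these complexes share (-0.24 from 24 h to 48 h, SE 0.06). Partners called in 1 comparison alone with a log2 change smaller than 1, other than Kat5, are named because few were called. They were chosen after their values had been seen. Of these 15 calls, DESeq2 kept 12 and did not make those of Mllt1, Naa40 and Supt7l. Those of Brd3, Creb1 and Taf5l were kept with each library left out, and the other 12 were each lost without any 1 of 2 to 6 libraries.

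Of the 6 other acetyltransferases, 0, 1 and 1 were called in the 3 comparisons by edgeR. The shares called were 0%, 16.7% and 16.7%, beside 25.5%, 31.6% and 21.3% of all genes tested. For the 0 at 24 h, 2 genes had an unadjusted p under 0.05 and DESeq2 called 0. They include Kat5 (TIP60, the enzyme of the NuA4 complex), which rose by 0.51 at 48 h against 0 h (SE 0.12, adjusted p = 0.018 by edgeR), with 34.5, 29.0 and 32.5 CPM at 0 h, 38.4, 41.3 and 45.6 CPM at 24 h, and 48.7, 46.4 and 41.6 CPM at 48 h. The 48 h libraries of Kat5 all lay above those of 0 h. Its call was lost without 0 h replicate 2 (adjusted p = 0.067), 48 h replicate 1 (0.088) or 48 h replicate 2 (0.071). Naa40, which acetylates the amino end of histones H4 and H2A, was called at -0.20 from 24 h to 48 h by edgeR (SE 0.06) and not by DESeq2 (-0.19, adjusted p = 0.069). Kat8 (MOF, a main enzyme of histone H4), Hat1 (which acetylates newly made histone H4) and Kat14 (the second enzyme of ATAC) were called in none of the comparisons, with log2 differences from 0 h of -0.03 and 0.02, -0.28 and -0.39, and -0.08 and -0.03 at 24 h and 48 h. When GC content and length were fitted, Hat1 passed at 24 h (-0.30, adjusted p = 0.030 by edgeR) and 48 h (-0.51, adjusted p = 0.0024) against 0 h.

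Of the 24 partners in SAGA and ATAC, 1, 4 and 5 were called in the 3 comparisons, with medians of -0.03, 0.06 and 0.09. The shares called were 4.17%, 16.7% and 20.8%, beside 25.5%, 31.6% and 21.3% of all genes tested. Tada3, an adaptor that both complexes use to hold KAT2A or KAT2B on chromatin, gave 43.8, 47.4 and 53.2 CPM at 0 h, 27.3, 28.4 and 25.5 CPM at 24 h, and 24.2, 25.9 and 24.0 CPM at 48 h. Its later libraries all lay below those of 0 h, with log2 changes of -0.82 (SE 0.12, adjusted p = 0.0026 by edgeR) and -0.96 (SE 0.12, adjusted p = 0.00090). Eny2, a subunit of the deubiquitinating module of SAGA, rose by 1.11 at 48 h against 0 h (SE 0.26, adjusted p = 0.016 by edgeR), from 11.8, 25.2 and 18.4 CPM to 40.7, 44.3 and 34.9 CPM. The call of Eny2 was lost without 48 h replicate 1 (adjusted p = 0.058) or 48 h replicate 2 (0.063), and when GC content and length were fitted (0.79, adjusted p = 0.14). The others called at 48 h against 0 h were Supt3, a core subunit of SAGA (-0.48, SE 0.14), and Yeats2, the acetyl-lysine reader of ATAC (0.58, SE 0.18). From 24 h to 48 h, Atxn7 (0.46, SE 0.10), Tada2a (0.30, SE 0.08) and Taf5l (0.32, SE 0.06) were called higher, and Supt7l (-0.21, SE 0.07) and Wdr5 (-0.22, SE 0.06) lower. The call of Supt7l was not made by DESeq2 (-0.20, adjusted p = 0.085).

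Of the 11 partners of p300 and CBP, 2, 3 and 3 were called. The shares called were 18.2%, 27.3% and 27.3%, beside 25.5%, 31.6% and 21.3% of all genes tested. Cited1, a small coactivator that binds both enzymes, gave 8.29, 7.49 and 9.41 CPM at 0 h, 21.9, 19.8 and 24.1 CPM at 24 h, and 26.7, 30.1 and 27.5 CPM at 48 h. It rose in each comparison, by 1.40 (SE 0.15, adjusted p = 0.00063 by edgeR) and 1.74 (SE 0.14, adjusted p = 0.00014) against 0 h and by 0.35 (SE 0.09, adjusted p = 0.027) from 24 h to 48 h. The rise of Cited1 from 24 h to 48 h was lost without 24 h replicate 1 or 2 or any of the 48 h libraries (adjusted p from 0.056 to 0.087), and with all 9 libraries in 1 fit (0.13). Its relative Cited2 had log2 changes of -0.55 at 48 h against 0 h (SE 0.12, adjusted p = 0.011 by edgeR) and -0.35 from 24 h to 48 h (SE 0.07, adjusted p = 0.0069). The former call was lost without 48 h replicate 1 (adjusted p = 0.060) or 48 h replicate 3 (0.061), and the latter with all 9 libraries in 1 fit (0.084). Crtc3, a coactivator of CREB, rose by 0.65 at 24 h (SE 0.17, adjusted p = 0.029 by edgeR) and by 1.01 at 48 h (SE 0.13, adjusted p = 0.0011) against 0 h. The call of Crtc3 at 24 h was lost without 24 h replicate 1 (adjusted p = 0.11) or 24 h replicate 2 (0.12). Creb1, a transcription factor that recruits CBP, was called at 0.47 from 24 h to 48 h (SE 0.09).

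In the supply of acetyl-CoA, 2 of 5 genes were called in each comparison, all lower, where 14.2%, 18.5% and 12.7% of all genes were called lower. Acss1, the gene of the 59 with the largest change in both comparisons with 0 h, makes acetyl-CoA from acetate in mitochondria. It stood at 34.6, 42.5 and 43.6 CPM at 0 h, 8.93, 9.83 and 9.13 CPM at 24 h, and 5.34, 5.47 and 4.05 CPM at 48 h. No groups overlapped, and its log2 changes were -2.10 (SE 0.13, adjusted p = 6.2e-05 by edgeR) and -3.02 (SE 0.17, adjusted p = 3.1e-05) against 0 h and -0.92 (SE 0.15, adjusted p = 0.0037) from 24 h to 48 h. Slc25a1, the carrier that brings citrate out of mitochondria, gave 71.3, 106 and 137 CPM at 0 h, 83.0, 79.5 and 84.4 CPM at 24 h, and 49.4, 49.4 and 47.1 CPM at 48 h. Its log2 changes were -1.11 at 48 h against 0 h (SE 0.22, adjusted p = 0.0082 by edgeR) and -0.77 from 24 h to 48 h (SE 0.07, adjusted p = 0.00019), the latter lost with all 9 libraries in 1 fit (adjusted p = 0.051). Acly, which splits citrate into acetyl-CoA in the cytosol, was called at -0.41 at 24 h against 0 h (SE 0.11).

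Of the 7 readers of acetylated lysine, 2, 0 and 1 were called in the 3 comparisons by edgeR. The shares called were 28.6%, 0% and 14.3%, beside 25.5%, 31.6% and 21.3% of all genes tested. For the 0 at 48 h against 0 h, 2 genes had an unadjusted p under 0.05 and DESeq2 called 0. The BET protein Brd2 was lower (-0.45, SE 0.14) and the YEATS protein Mllt1 higher (0.39, SE 0.12) at 24 h than at 0 h, and the BET protein Brd3 was lower at 48 h than at 24 h (-0.39, SE 0.08). The call of Mllt1 was not made by DESeq2 (0.38, adjusted p = 0.058).

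**Figure D4:**
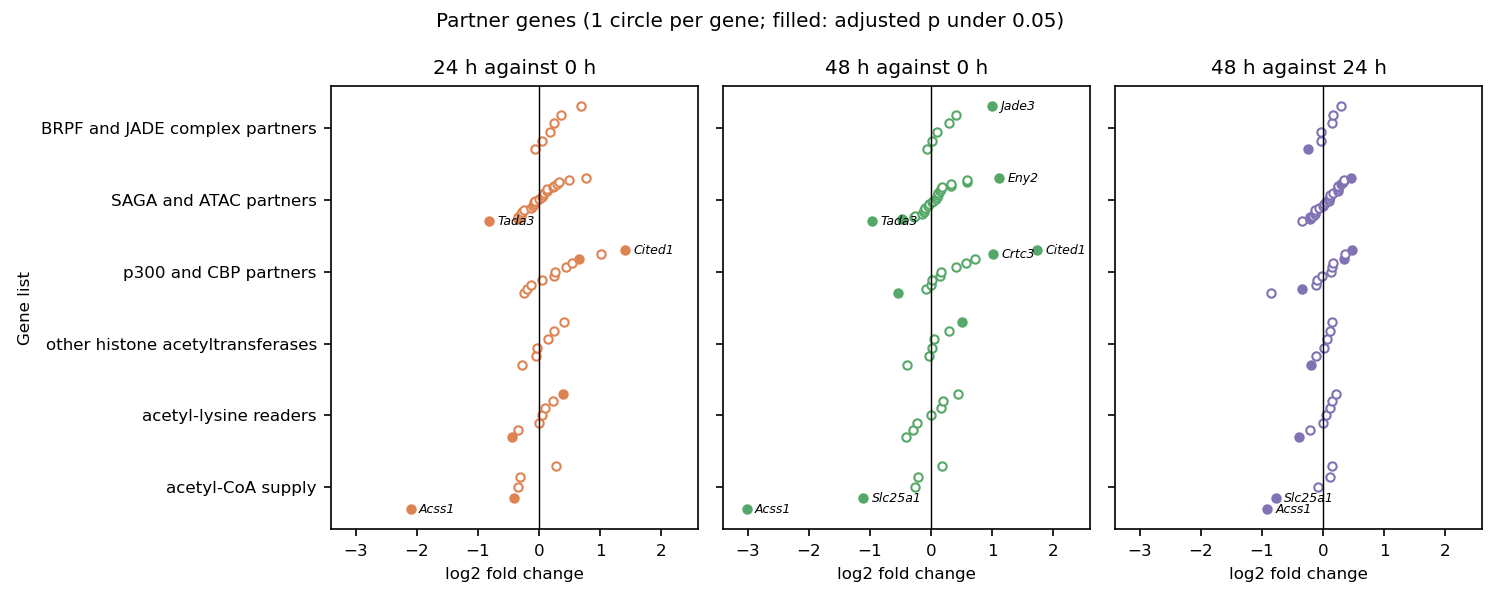
Log2 fold change of the 59 partner genes in 6 lists, 1 circle per gene, for the 3 comparisons of time points; filled circles have an adjusted p under 0.05 by edgeR, and called genes with a change of at least 0.75 are named. Acss1 lies farthest to the left in the comparisons with 0 h, and Cited1 farthest to the right.

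The genes whose pattern over the 9 libraries was most like that of a member were looked up among 10357 genes by Pearson's r of log2 CPM, as a description. All genes were read in the same 9 libraries, which are grouped by time point, so no p is given. Brd1 was most like Ubap1 (r = 0.986), Fbxl14 (r = 0.970) and Enc1 (r = 0.966), of which Enc1 went from 149 ± 1.55 CPM at 0 h to 32.9 ± 3.08 CPM at 24 h and 70.0 ± 2.72 CPM at 48 h. Brpf3 was most like Caskin1 (r = 0.989), Nsmf (r = 0.987) and Reep6 (r = 0.986), of which Caskin1 went from 33.1 ± 6.17 to 70.0 ± 6.78 and 61.9 ± 7.18 CPM. Kat2b was most like Ezh2 (r = 0.995), the methyltransferase of the Polycomb complex PRC2, Hivep1 (r = 0.995) and Dnajc10 (r = 0.991). Ezh2 stood at 84.6 ± 13.6 CPM at 0 h, 55.9 ± 1.48 CPM at 24 h and 56.1 ± 0.982 CPM at 48 h. The 0 h libraries of these genes are spread more widely than their later ones, as those of Kat2b are. Between members, the values most alike were those of Kat6b and Crebbp (r = 0.95) and the most opposed those of Brpf3 and Kat2b (r = -0.90). Kat6b and Crebbp share the low values in 0 h replicate 3.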

How the data were processed

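EGFP-SSCs were profiled by poly-A RNA-seq in 9 libraries, 3 at each of 0 h, 24 h and 48 h, grouped by their titles. The authors deposited raw counts of reads per Ensembl gene, with no normalization. Per the submitters' processing notes, fastp, HISAT2, featureCounts and the build GRCm38 were used, with versions not given in the sources used here. The authors tested time points with DESeq2. Symbols, positions and lengths came from GENCODE M21, which held 45229 of 46078 identifiers, and the other 849 took at most 0.121% of the counts of a library.

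Here, the 6 libraries of each comparison were passed through filterByExpr and TMM scaling in edgeR 4.0.16 (R 4.3.3). Its quasi-likelihood test (two-sided) gave the p-values, which were adjusted after Benjamini-Hochberg over all genes tested, with a threshold of 0.05. CPM used TMM over the 9 libraries, and log2 CPM for likeness a prior count of 2 and a mean of at least 10 CPM. FPKM were computed here from the counts. Replicates differed by more than counting noise (chi-square of 7.13 to 81.4 per degree of freedom), and each library is 1 replicate. The genes and the lists were chosen with earlier results of these data known. Besides the 10 genes, partner genes are named that were called in at least 2 comparisons, or in 1 with a log2 change of at least 1, plus Kat5, Kat8, Hat1 and Kat14. Outside this rule, the other partners called are named because few were, after their values were seen.

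Alternatives were DESeq2 1.42.0, its size factors, library size alone, no filter, a minimum of 10 counts in each library, 1 fit to all 9 libraries, a replicate block, offsets for GC content and length (splines of 5 and 4 degrees of freedom), and leaving out each library. The longest transcripts of 8 of the 10 genes held no stretch of 75 bases with 97% identity to another gene by BLAST 2.17.0, and Brpf1 and Brpf3 matched antisense transcripts over 2.96% and 3.82%. On simulated data for 24 h against 0 h (17592 genes, 200 changed), edgeR recovered 66 of 200 changes of 1 on the log2 scale and 187 of 200 of 3, with 6 and 14 false calls, and called 0 with none changed. On the same data DESeq2 recovered 118 and 188 of 200, with more false calls (41 and 55). The simulation gave each gene the same spread at 0 h and 24 h, whereas the real 0 h libraries differed more from each other. Plots used Python 3.11.15 with matplotlib 3.10.9.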

Additional observations from a re-analysis of the deposited data

How the results depend on the processing

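The calls of Brd1, Brpf3 and Kat2b at 24 h against 0 h and of Kat2b at 48 h against 0 h were kept under each alternative and with each library left out. The count of members called moved as follows. At 24 h against 0 h it was 5 (3 higher) with offsets for GC content and length, which add Brpf1 and Kat6b. At 48 h against 0 h, 4 were called with all 9 libraries in 1 fit (2 higher and 2 lower) and 4 with those offsets (3 higher), and 2 were higher under DESeq2, with library size alone and with no filter on low counts. From 24 h to 48 h, 0 were called by edgeR when all 9 libraries shared 1 fit (0 higher; 1 had an unadjusted p under 0.05). Leaving out 1 library gave 1 to 2 higher at 24 h against 0 h. At 48 h against 0 h it gave 1 (without 48 h replicate 2 or 3) to 4 called (without 0 h replicate 1), 0 to 2 higher and 1 to 2 lower. At 48 h against 24 h it gave 1 (without 24 h replicate 1 or 3 or 48 h replicate 1 or 3) to 3 called, 1 to 2 higher and 0 to 1 lower, with Kat2a added without 48 h replicate 2 (-0.24, adjusted p = 0.034 by edgeR). The cause of these moves was not tested.

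Of the 59 partner genes, 7, 11 and 13 were called in the 3 comparisons (24 h against 0 h, 48 h against 0 h, 48 h against 24 h). At 24 h against 0 h it was 12 with library size alone, 13 with all 9 libraries in 1 fit and 21 with offsets for GC content and length, at 48 h against 0 h 19 and 20 with the last pair of these, and from 24 h to 48 h 2 when all 9 libraries shared 1 fit. Leaving out 1 library gave 3 (without 24 h replicate 1 or 2) to 15 (without 0 h replicate 3), 5 (without 48 h replicate 1) to 20 (without 0 h replicate 1) and 6 (without 48 h replicate 1 or 3) to 11. Samples with the same replicate number did not deviate together (correlations of -0.28 to 0.196, beside -0.392 to 0.38 for different numbers). Since these deviations are taken from means of 3 libraries, they cannot show whether the numbers pair the samples. With the replicate block, 4 partner genes were called at 24 h against 0 h and 8 at 48 h against 24 h, and no call of a member changed. Over all genes, 4494 were called at 24 h against 0 h, and 2607 to 2931 without any 1 of the 24 h libraries or 0 h replicate 2. At 48 h against 0 h, 5602 were called, and 3471 and 3624 without 48 h replicate 1 or 3. From 24 h to 48 h, 3732 were called, 1857 and 2255 without 48 h replicate 1 or 3, 2044 without 24 h replicate 1, and 1043 when all 9 libraries shared 1 fit. The higher share of the calls was 57.1% at 24 h and 52.8% at 48 h against 0 h with library size alone, beside 44.5% and 41.2%, and for 48 h against 24 h 27.3% when all 9 libraries shared 1 fit, beside 40.4%.

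Signs turned for small differences that passed no test. With library size alone, Kat7 was at 0.06 and 0.07, Kat14 at 0.04 and 0.08 (24 h and 48 h against 0 h), and Kat8 at 0.08 at 24 h. With offsets for GC content and length, Kat7 was at 0.03 and 0.07, Kat8 at 0.00 at 24 h and Kat14 at 0.14 at 48 h against 0 h, and at 48 h against 24 h Brpf1 was at 0.07, Brpf3 at 0.00, Kat6b at -0.04, Kat2a at 0.04 and Tada3 at 0.04. With at least 10 counts in every library, Kat8 was at 0.01 at 24 h. Leaving out 1 library moved Kat6a from -0.16 to 0.20 and Kat8 from -0.09 to 0.06 at 24 h against 0 h. At 48 h against 0 h it moved Kat7 from -0.07 to 0.01, Ep300 from -0.08 to 0.20, Kat14 from -0.06 to 0.04 and Kat8 from -0.04 to 0.12, and at 48 h against 24 h Kat7 from -0.02 to 0.08. The counting error of a member's value was at most 6.68%. In the simulated data, edgeR recovered 66 of 200 changes of 1 on the log2 scale at 24 h against 0 h. Those data gave each gene the same fitted spread at both time points. They do not hold the wider spread of the 0 h libraries, so this recovery need not be that of the real data.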
